A study of Homo sapiens and Mus musculus with 4 samples.

Results

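The genes CCND1, CCND2 and CDK6 encode cyclin D1, cyclin D2 and the kinase CDK6, which act together in the G1 phase of the cell cycle. The regions described here are the TEAD-bound peaks whose midpoint lay within 200 kb of the transcription start site (TSS) of each gene, in human and in mouse. There were 86 such peaks among the 69714 peaks of the series, 36 of 22681 in RD cells and 50 of 47033 in YAP-ERMS cells. Binding was measured by chromatin immunoprecipitation and sequencing (ChIP-seq), in which DNA crosslinked to a protein is pulled down with an antibody and sequenced. RD is an established human embryonal rhabdomyosarcoma line, profiled with 1 TEAD library and 1 IgG library as its control. YAP-ERMS cells are mouse cells from tumours driven by YAP, raised under Myf5-Cre or Pax7-CreER, profiled with 1 TEAD library and 1 input library as the control. Myf5-Cre recombines in the myogenic lineage, and Pax7-CreER in satellite cells, the stem cells of muscle, after tamoxifen. The labels do not say which driver the sequenced cells came from or how many tumours they represent. The labelled cell types could not be checked against markers, because a peak list holds no expression values.

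TEAD proteins bind DNA and recruit YAP1 or its relative TAZ, the co-activators that the Hippo pathway keeps out of the nucleus when it is active. D-type cyclins bind CDK4 or CDK6, and the complexes phosphorylate the retinoblastoma protein, which releases E2F factors and lets the cell leave G1. In muscle progenitors, leaving the cell cycle in G1 goes together with differentiation, and rhabdomyosarcoma cells keep dividing while they express early muscle genes.

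With 1 TEAD library per cell line, no difference reported here has a replicate check, and no test was made. How deeply the libraries were sequenced cannot be read from the lists. Each peak carries a score given by the authors' peak caller, read as 10 times the negative log10 of its p-value, so that the lowest score of 80 stands for p = 1e-08. Scores depend on depth and on the control, so each peak was placed only among the peaks of its own list, as a percentile. The lists had median scores of 189 (RD) and 205 (YAP-ERMS). Distances run from the TSS to the peak's midpoint, with negative values upstream in the direction of the gene. The TSS positions are rounded to 1 kb, so a distance can be off by up to 0.5 kb from rounding alone. For human CDK6 it may be off by more. That gene has 2 start sites, and which of them the position stands for was not matched.

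All 3 genes had TEAD peaks in both cell lines, but in different numbers. In RD, 23 peaks lay around CDK6 (exact Poisson 95% interval 14.6 to 34.5), 9 around CCND2 (4.12 to 17.1) and 4 around CCND1 (1.09 to 10.2). In YAP-ERMS, 23 lay around Ccnd1 (14.6 to 34.5), 18 around Cdk6 (10.7 to 28.4) and 9 around Ccnd2 (4.12 to 17.1). These intervals cover counting error only and treat neighbouring peaks as independent. The cyclin D1 gene thus had the fewest peaks of the 3 in RD and the most in YAP-ERMS. No gene is called different from another by these intervals. With peaks within 1 kb joined, the RD count was 17 at CDK6 and stayed at 4 at CCND1. The interval of CCND2 overlapped both of the others in RD. In YAP-ERMS all 3 intervals overlapped.

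These counts were read against all 400 kb tiles of the same genome. In RD the median tile held 2 peaks, and 33.9% of the 7316 tiles held none. At least as many peaks as around CDK6 were found in 0.369% of RD tiles, as many as around CCND2 in 9.96%, and as many as around CCND1 in 32.0%. In YAP-ERMS the median tile held 6 peaks. At least as many as around Ccnd1 were found in 3.45% of its 6399 tiles, as many as around Cdk6 in 9.41%, and as many as around Ccnd2 in 37.1%. CDK6 in RD and Ccnd1 in YAP-ERMS lay at the dense end of their genomes, whereas counts like those of CCND1 in RD and Ccnd2 in YAP-ERMS were common. The share for CDK6 ranged from 0.246% with tiles shifted by 200 kb to 0.558% over tiles with a peak. Over the gene's own chromosome it was 16.0% for CCND2, 5.63% for Cdk6 and 2.41% for Ccnd1. The tiles are not centred on genes, and windows around other gene starts were not analysed here.

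**Figure D1:**
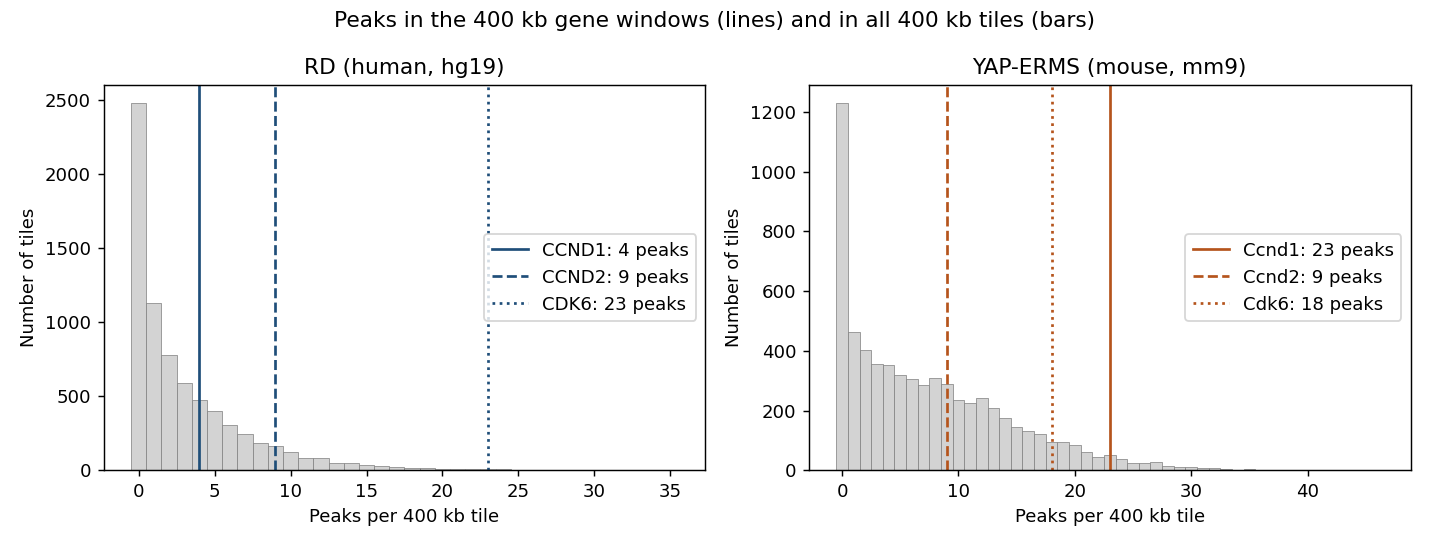
Number of 400 kb tiles (vertical axis) by the peaks they hold (horizontal axis), for RD on the left and YAP-ERMS on the right. Vertical lines mark the gene windows: 4, 9 and 23 peaks for CCND1, CCND2 and CDK6 in RD, and 23, 9 and 18 for Ccnd1, Ccnd2 and Cdk6 in YAP-ERMS.

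Close to the start site, each of the 3 genes had at least 1 peak within 5 kb of its TSS in both lists, with 6 such peaks in RD and 6 in YAP-ERMS. Of all positions between the first and last peak of a chromosome, 6.34% lay that close to a peak in RD and 14.8% in YAP-ERMS. These shares are over all positions, not over gene starts. The highest scoring of these peaks lay on the same side of the TSS in both species for the cyclin genes. For cyclin D1 it lay at -4.6 kb in RD and at -3.5 kb in YAP-ERMS. For cyclin D2 it lay at 3.3 kb in RD and at 3.1 kb in YAP-ERMS. For CDK6 it lay at 0.1 kb in RD and at 1.7 kb in YAP-ERMS, where the rounding of the TSS leaves the side of the RD peak uncertain. Human CDK6 also has 2 start sites 2.6 kb apart in RefSeq, and which of them the TSS position stands for was not matched. Their scores lay between percentiles 82.5 and 96.9 of the RD list and between percentiles 86.2 and 90.6 of the YAP-ERMS list.

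**Figure D2:**
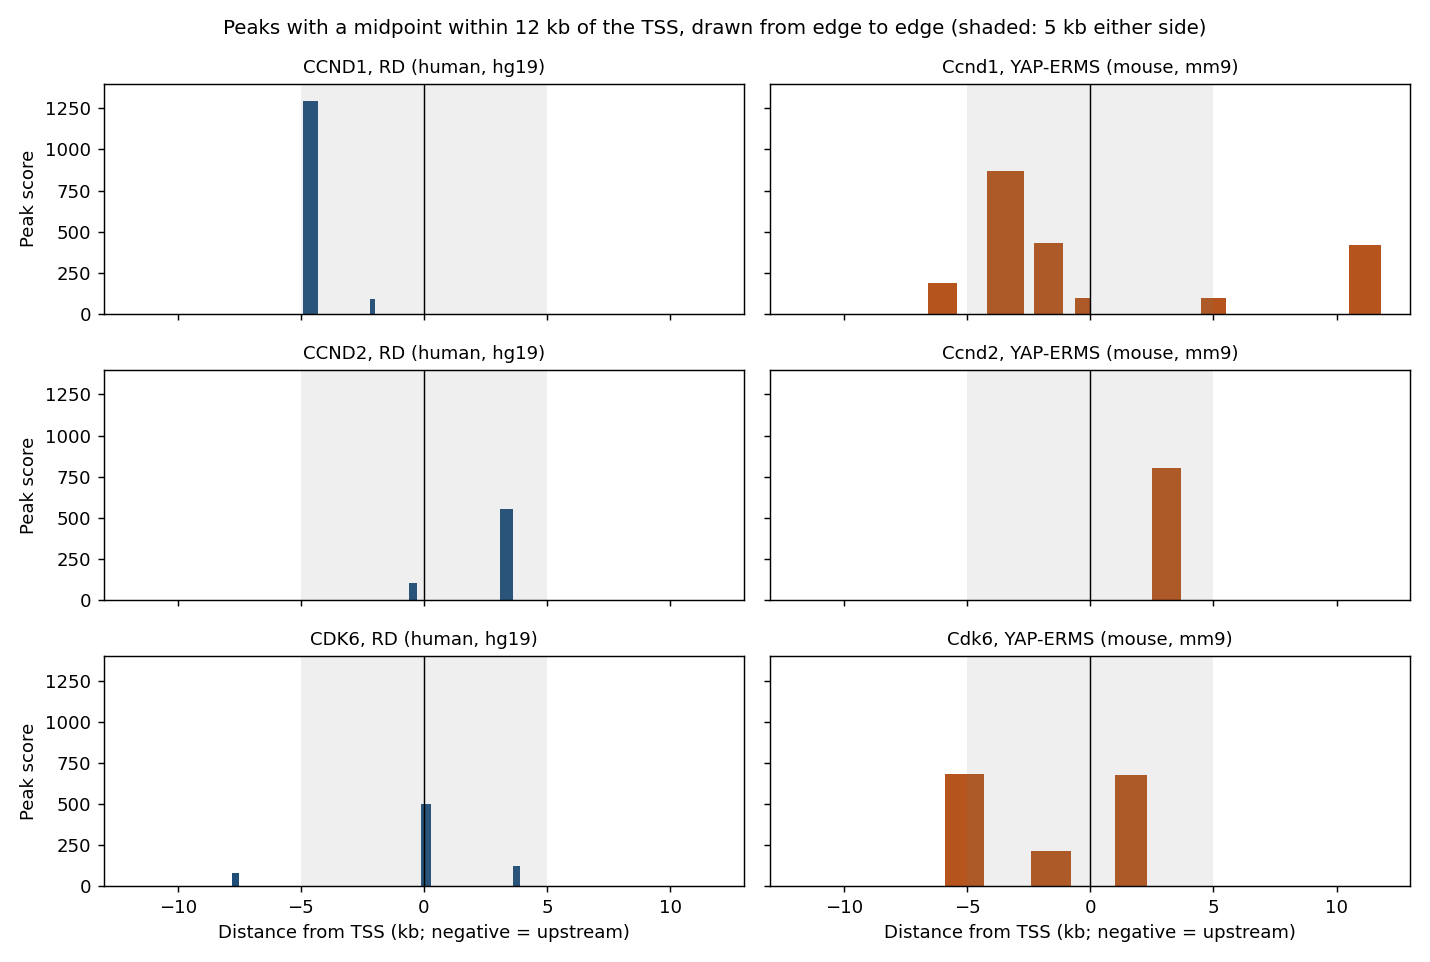
Peaks with a midpoint within 12 kb of the TSS, drawn from edge to edge, with distance from the TSS in kb on the horizontal axis and the peak's score on the vertical axis. RD is on the left and YAP-ERMS on the right; the shaded band marks 5 kb either side. The cyclin D2 gene has a peak just past 3 kb downstream in both, and the cyclin D1 gene has its highest peak between 3 and 5 kb upstream in both.

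Cyclin D1 is induced by growth factor signalling and ties it to the cell cycle. All 4 RD peaks lay upstream of CCND1, which is on the plus strand of chromosome 11 with its TSS at 69.456 Mb of hg19. They formed 2 pairs, each of 1 strong and 1 weak peak. The pair near the gene was chr11:69451094-69451701 at -4.6 kb, with a score of 1292 (percentile 96.9, rank 700), and chr11:69453842-69454015 at -2.1 kb, with a score of 89.5 (percentile 9.51). The distal pair was chr11:69311876-69312488 at -143.8 kb, with a score of 1624 (percentile 98.4, rank 355), and chr11:69307462-69307648 at -148.4 kb, with a score of 136 (percentile 34.0). No RD peak lay between the pairs, over 139.2 kb.

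Downstream of CCND1 the RD list held no peak until 661.7 kb past the TSS. With the last upstream peak at -2.1 kb, that made a stretch of 663.8 kb without a peak across the gene. Of the 22607 stretches between neighbouring RD peaks, 864 (3.82%) were at least as long. Together they held 43.0% of all positions between the first and last peak of a chromosome, assembly gaps included. The genes that follow CCND1 on that side in GRCh38 include LTO1 and FGF19, a fibroblast growth factor gene. Upstream, by contrast, 7 further RD peaks lay between 200 and 400 kb from the TSS.

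In YAP-ERMS, peaks lay on both sides of Ccnd1, which is on the minus strand of chromosome 7 at 152.126 Mb of mm9, with 17 upstream and 6 downstream. The highest score was at -105.6 kb, chr7:152230352-152232778, with a score of 2046 (percentile 98.7, rank 616). Next came chr7:152291341-152293135 at -166.2 kb with 1236, and chr7:151996833-151998110 at 128.5 kb, downstream, with 949. The peak chr7:152166180-152168029 at -41.1 kb had a score of 892, and chr7:152128743-152130185 at -3.5 kb one of 871 (percentile 90.6). The peak nearest the TSS, at -0.3 kb (chr7:152126030-152126595), was the narrowest of the window at 566 bp and had a score of 100 (percentile 14.4). Its edge met the TSS position within the rounding, whereas the nearest RD peak ended 2.0 kb before the gene. In both species the highest scoring peak within 5 kb lay farther upstream than the weak one nearest the start. In YAP-ERMS these were not a pair, since a peak at -1.7 kb with a score of 429 (percentile 75.6) lay between them. Another lay at -6.0 kb with a score of 186. The 17 Ccnd1 peaks besides the 5 highest and the one nearest the TSS scored between 80.1 and 771.

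The Ccnd1 promoter region was part of a cluster of 6 peaks, defined as peaks with gaps of at most 12.5 kb, that ran from -6.0 to 11.1 kb over 18.3 kb of chromosome 7 (152114245 to 152132577). Its scores ran from 98.8 to 871. A second cluster of 5 peaks ran from -62.1 to -41.1 kb, with scores from 80.1 to 892. Together they held 11 of the 23 Ccnd1 peaks. Over the whole list, 17.6% of YAP-ERMS peaks lay in clusters of 5 or more. The cluster at the promoter ranked 438th, tied with others of 6, by number of peaks among 1267 such clusters. No cluster of that size lay around Ccnd2 or Cdk6 in YAP-ERMS.

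Cyclin D2 is a close relative of cyclin D1 with the same kinase partners. It had 9 peaks in each list, with 3 upstream and 6 downstream in both. CCND2 is on the plus strand of chromosome 12 at 4.383 Mb of hg19. In RD the highest scores lay far from the gene and almost at the same distance on either side. The peak chr12:4225629-4226359 at -157.0 kb had a score of 1392 (percentile 97.4) and chr12:4542695-4543421 at 160.1 kb had a score of 1264 (percentile 96.8). The peak chr12:4386109-4386551 at 3.3 kb came next, with a score of 555 (percentile 84.9). Then followed chr12:4429939-4430274 at 47.1 kb with 246 and chr12:4221988-4222387 at -160.8 kb with 195. The peak nearest the TSS, chr12:4382442-4382672 at -0.4 kb, was weak, with a score of 104 (percentile 19.9). The remaining 3 peaks, all beside the distal downstream peak, scored between 89.5 and 135. Between -157.0 and -0.4 kb the RD list held no peak, a stretch of 156.6 kb. The peak at 47.1 kb and the distal downstream peaks lie in the direction of TIGAR, FGF23 and FGF6, the next genes on that side in GRCh38. Whether any of these peaks falls within one of those genes or at its start was not analysed here.

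In YAP-ERMS, Ccnd2 is on the minus strand of chromosome 6 at 127.101 Mb of mm9. Its window again had the highest score far upstream, at -179.4 kb (chr6:127278913-127281925, score 1271, percentile 95.4, 3013 bp wide). The peak at 3.1 kb, chr6:127097295-127098513, came second with a score of 803 (percentile 89.4) and was also the peak nearest the TSS. No weak peak at the start site corresponded to the one at -0.4 kb in RD. Downstream peaks followed at wide intervals, at 93.5 kb (score 726), 125.5 kb (548) and 175.7 kb (421). The remaining 4 peaks scored between 80.5 and 230. Between -115.4 and 3.1 kb there was no peak over 118.4 kb, so the proximal upstream side of cyclin D2 was the longest empty stretch of the window in both species.

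CDK6 is the kinase partner of the D-type cyclins and a long gene, whose introns fill most of the downstream side of the window. It is on the minus strand of chromosome 7 at 92.465 Mb of hg19. In RD, 8 peaks lay upstream and 15 downstream. The highest score was at -81.3 kb, chr7:92545936-92546652, with 1380 (percentile 97.4, rank 589). It was followed by chr7:92644309-92645010 at -179.7 kb with 1167 (percentile 96.1) and by chr7:92327425-92328006 at 137.3 kb with 1156 (percentile 96.0). The next highest were neighbours downstream, chr7:92381504-92382344 at 83.1 kb with 744 and chr7:92380154-92380744 at 84.6 kb with 619. The other 17 peaks besides these and the peak at the TSS scored between 81.0 and 597.

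The peak chr7:92464696-92465122 lay at the rounded CDK6 TSS position, with edges at -0.1 and 0.3 kb and a score of 498 (percentile 82.5). It cannot be said whether this peak covers a start, because of the rounding and because the start site meant was not matched. For the CCND2 peak that ended at -0.3 kb, the rounding of up to 0.5 kb alone leaves this open. RefSeq gives CDK6 2 start sites in GRCh38, 2.6 kb apart, and which of them the hg19 position stands for was not matched across the builds. The 250 bases before each start are shown because this peak lies near the promoter, 5′ to 3′ on the minus strand of GRCh38.p14. The upstream one is chr7:92836574-92836823 and the downstream one chr7:92833960-92834209.
CDK6 start 1: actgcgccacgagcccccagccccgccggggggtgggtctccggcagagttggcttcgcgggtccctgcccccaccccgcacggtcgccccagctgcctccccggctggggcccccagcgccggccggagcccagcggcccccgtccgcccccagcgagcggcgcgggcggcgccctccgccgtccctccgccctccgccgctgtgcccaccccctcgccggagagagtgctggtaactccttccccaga
CDK6 start 2: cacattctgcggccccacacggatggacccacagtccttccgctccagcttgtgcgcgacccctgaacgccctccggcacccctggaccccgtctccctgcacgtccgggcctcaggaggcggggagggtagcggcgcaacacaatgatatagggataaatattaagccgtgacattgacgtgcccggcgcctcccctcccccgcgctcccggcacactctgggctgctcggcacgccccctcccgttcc

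Both stretches were rich in G and C, with 80% before start 1 and 67.6% before start 2, against a median of 58.0% over the 35116 RefSeq promoters of the same length. They held 30 and 23 CG dinucleotides, against a median of 11. Neither holds the core of the TEAD motif, CATTCC, searched on both strands (GGAATG on the other), which 11.9% of all promoters hold. Neither holds the AP-1 motif TGACTCA or its reverse complement TGAGTCA, which 4.2% hold. With no match, no base is capitalised. This says only that these letters are not in these windows, since the peak need not lie within them and other spellings of a motif were not searched. Of the 3 genes, 1 was matched in the promoter table, and the sequences before CCND1 and CCND2 were not used here.

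Downstream of the CDK6 start, 7 RD peaks formed a cluster from 69.8 to 84.6 kb past the TSS, at 92380154 to 92395357 on chromosome 7, over 15.2 kb. Their scores ran from 82.2 to 744, and it ranked 44th, tied with others of 7, by number of peaks among the 350 RD clusters of 5 or more. Such clusters held 9.38% of all RD peaks and 7 of the 36 described here, all of them at CDK6. The peaks of CDK6 had the shortest spacing of the 3 genes in RD, which follows in part from their larger number in a window of the same width. The median distance between neighbouring peaks was 2.6 kb around CDK6, 6.8 kb around CCND2 and 4.6 kb around CCND1, where only 3 distances were available.

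In YAP-ERMS, Cdk6 is on the plus strand of chromosome 5 at 3.344 Mb of mm9, with 9 peaks on each side. Its 3 highest scores all lay upstream. The peak chr5:3151590-3153113 at -191.6 kb scored 2220 (percentile 99.0, rank 474), the highest of the 50 YAP-ERMS peaks described here, and is the first peak of chromosome 5 in the list. Scores were 1508 at -99.8 kb (chr5:3243457-3244877) and 941 at -53.9 kb (chr5:3289547-3290716). The downstream peak at 195.1 kb scored 710 and the upstream peak at -5.1 kb scored 685. Around the start site, chr5:3341581-3343246 at -1.6 kb had a score of 217 (percentile 52.4) and the peak at 1.7 kb had 674, so that the TSS position lay between them. The upstream peaks were spread from -191.6 to -1.6 kb with no cluster of 5. Between 1.7 and 150.8 kb downstream, the only peaks were at 60.3 kb (score 148) and 64.1 kb (score 169). In RD that stretch held 14 peaks, the cluster of 7 and those at 3.7, 36.5, 111.8, 112.3, 137.3, 139.6 and 140.1 kb. The limits of the stretch were set by YAP-ERMS peaks, so the low YAP-ERMS number in it follows in part from that choice. Over the whole downstream side of the window there were 15 peaks in RD and 9 in YAP-ERMS. The 12 Cdk6 peaks besides the 5 highest and the one at -1.6 kb scored between 102 and 674.

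**Figure D3:**
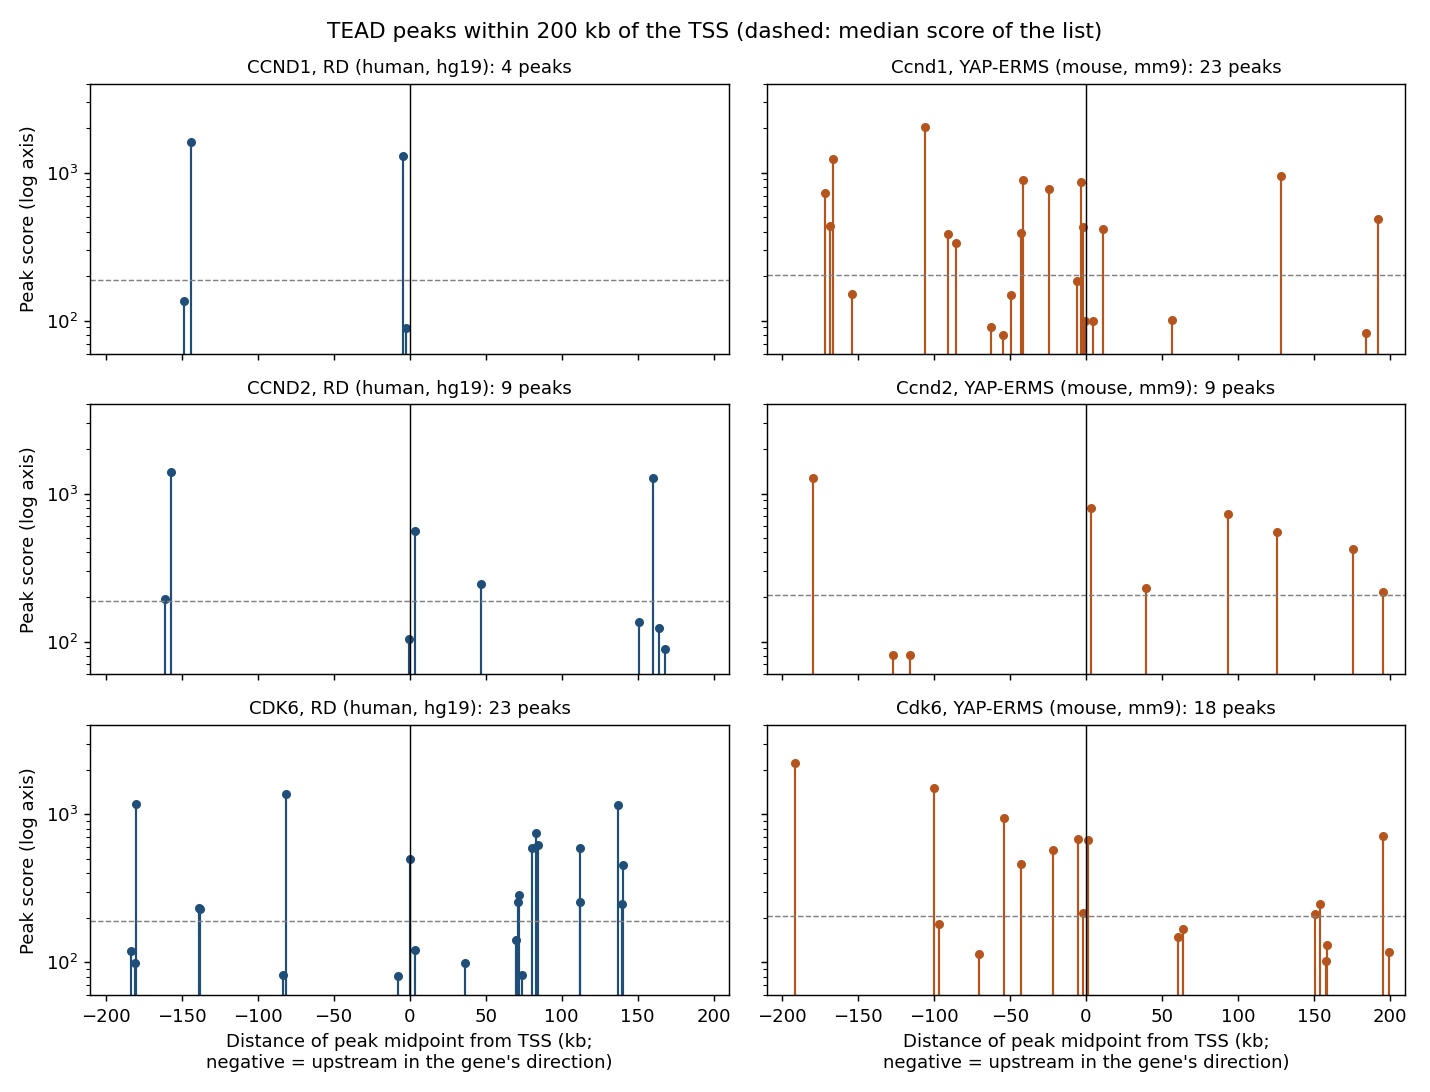
Score of every peak (vertical axis, log scale) by the distance of its midpoint from the TSS in kb (horizontal axis, negative upstream), for the 3 genes in RD on the left and YAP-ERMS on the right. The dashed line is the median score of the list, 189 in RD and 205 in YAP-ERMS. CCND1 in RD has 0 of its 4 peaks downstream, and the RD peaks of CDK6 crowd between 69.8 and 84.6 kb.

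By percentile, the RD scores in the windows lay between 1.03 and 98.4, and the YAP-ERMS scores between 0.123 and 99.0. The highest scores were 1624 in RD and 2220 in YAP-ERMS, below the lists' highest of 3180 and 3218. In RD, 22 of the 36 peaks scored above the list's median, as 50% of all RD peaks do, and 8 were in the top 10.0% of the list. By gene, these were 2 of 4 peaks at CCND1 (Wilson 95% interval 15.0% to 85.0%), 2 of 9 at CCND2 (22.2%, 6.32% to 54.7%) and 4 of 23 at CDK6 (17.4%, 6.98% to 37.1%). In YAP-ERMS, 32 of the 50 peaks scored above the median, against 50% of the list, and 9 were in its top 10.0%. They were 5 of 23 at Ccnd1 (21.7%, 9.66% to 41.9%), 1 of 9 at Ccnd2 (11.1%, 1.99% to 43.5%) and 3 of 18 at Cdk6 (16.7%, 5.84% to 39.2%). These intervals treat peaks of 1 library as independent, which neighbouring peaks are not, and no window is called different from its list by them. Each window held at least 1 such peak, but with 10.0% of each list counted as such, this alone sets no window apart. At Ccnd2 the share of 11.1% was close to that of the list.

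**Figure D4:**
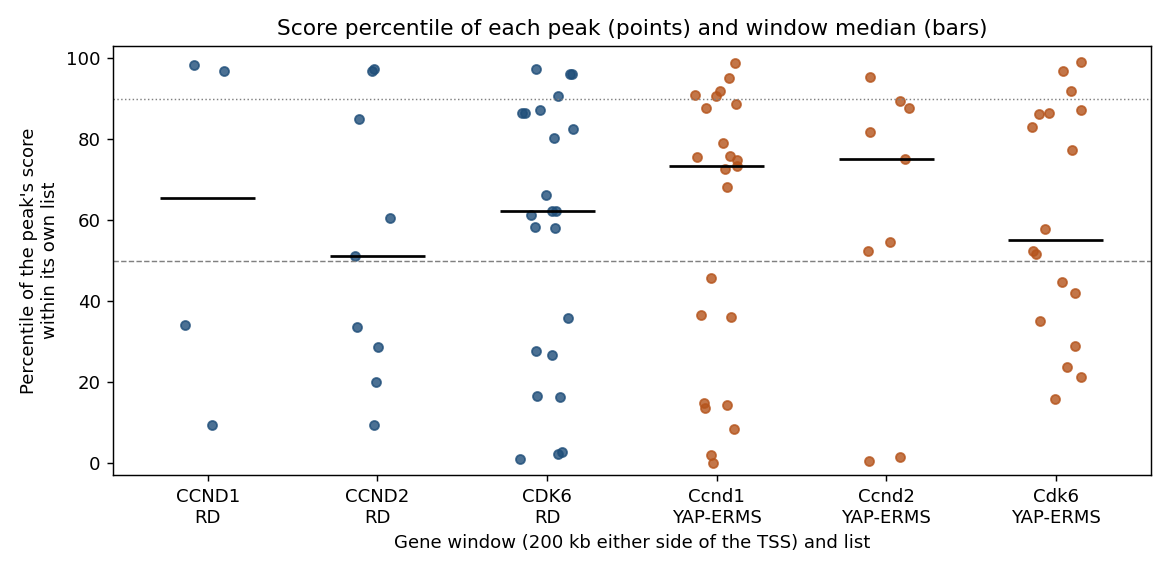
Percentile of each peak's score within its own list (vertical axis) for the 6 gene windows (horizontal axis); each point is a peak and each bar the median of the window. The dashed line marks the 50th and the dotted line the 90th percentile. Every window has at least 1 point above the dotted line, where 10.0% of each list lies.

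Density was not even along the windows, and beyond 5 kb it did not change with distance in the same way for each gene. Within 5 kb of the TSS it was 20.0 peaks per 100 kb for each gene in RD. In YAP-ERMS it was 30.0 at Ccnd1, 10.0 at Ccnd2 and 20.0 at Cdk6 there. That was the highest density of any bin in all 6 windows, but it rests on only 1 to 3 peaks each. The other bins were 5 to 50, 50 to 100, 100 to 200 and 200 to 400 kb from the TSS on both sides. The mean over all tiles was 0.771 peaks per 100 kb in RD and 1.83 in YAP-ERMS. In RD, the density around CDK6 was 2.22, 9.0, 5.0 and 3.0 peaks per 100 kb in these other bins, so among them it was highest at 50 to 100 kb. Around CCND2 it was 1.11, 0.0, 3.0 and 0.75. Around CCND1 it was 0.0, 0.0, 1.0 and 1.75, so the densest of these bins lay outside the window. In YAP-ERMS, it was 7.78, 5.0, 4.0 and 5.25 around Ccnd1, where the peak-rich region extended past the window. Around Cdk6 it was 3.33, 6.0, 3.5 and 0.75, with no peak on the upstream side beyond the window. The peak at -191.6 kb is the first of chromosome 5 in the list, and whether peaks could be called before it was not examined. The value of 0.75 divides by the full width of the bin on both sides, so it may be too low. Around Ccnd2 the density was 1.11, 1.0, 3.0 and 1.5, among these bins highest at 100 to 200 kb as around CCND2 in RD.

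The limit of 200 kb left out close neighbours in some windows. At Cdk6 the last downstream peak inside lay at 199.6 kb (score 118) and the next outside at 212.9 kb (score 256). Downstream of Ccnd2 those values were 195.1 kb (score 217) and 202.6 kb (score 223). Around CDK6 in RD the first peaks outside were at 200.6 kb downstream (score 541) and 201.9 kb upstream (score 226). Around CCND1 the first outside was at 204 kb upstream, with a score of 958.

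The distances of the peaks were also set side by side between the species. An RD peak was counted as placed alike when a YAP-ERMS peak lay within 2 kb of the same signed distance from the TSS. That held for 2 of 4 RD peaks at CCND1 (-4.6 and -2.1 kb), 1 of 9 at CCND2 (3.3 kb) and 1 of 23 at CDK6 (0.1 kb). All of these lay within 5 kb of the TSS. The 2 human CDK6 start sites lie 2.6 kb apart, more than the 2 kb used here, so the CDK6 match depends on the start chosen. Of all positions in the windows, 20.2%, 9.0% and 16.0% lay within 2 kb of the distance of a YAP-ERMS peak for the 3 genes in the same order. These counts are small, and no likeness or difference between the species is read from them. Distances from the TSS are not aligned positions, since insertions and deletions between human and mouse shift distal sites, and alignment of the sequences was not done here.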

How the data were processed

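TEAD ChIP-seq was analysed from the peak lists the authors deposited, 1 for RD against IgG and 1 for YAP-ERMS against input. The submitters' processing notes name Bowtie2 as aligner and hg19 and mm9 as builds. The peak names are those that MACS writes, and the lists' names state an mfold of 5 and a p-value limit. The score in the deposited lists comes from the authors' caller and was used unchanged. No summits, read numbers or enrichments were used. Tool versions and duplicate handling: not given in the sources used here.

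Peaks with a midpoint within 200 kb of the TSS positions (in Mb) were taken. Tiles of 400 kb ran from the first peak of each chromosome (Y, random and unplaced sequences left out), and whole tiles were used. Named peaks were all peaks of a window with 6 or fewer, otherwise the 5 highest scores and the peak nearest the TSS. Other peaks are named where they stand at a start site or a limit, chosen after their values were seen. The members and lists were chosen with earlier results of these data known, and the distance of 5 kb, the clusters, the stretch without peaks and the comparison of signed distances were added after seeing values. Strands of the genes were taken as known, and those of CDK6 also from the RefSeq promoter table. The 19 other G1 genes that had been listed need TSS positions of hg19 and mm9 and were not analysed here. Python 3.11.15, numpy 2.4.6, pandas 2.3.3, scipy 1.17.1 and matplotlib 3.10.9 were used, and counting was tested on simulated data. Alternatives are given in the closing section.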

Additional observations from a re-analysis of the deposited data

How the results depend on the processing

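Counts within 1.5 times of the deposited ones were found for all 6 windows when peaks within 1 kb were joined and when any base of a peak in the window counted. Within 100 kb of the TSS the counts were 2 at CCND1, 3 at CCND2 and 13 at CDK6 in RD, and 15 at Ccnd1, 3 at Ccnd2 and 11 at Cdk6 in YAP-ERMS, as a smaller window must give fewer. With scores of 160 or more, they were 2, 5 and 15 in RD in that order and 15 at Ccnd1, while Ccnd2 and Cdk6 stayed within 1.5 times. The share of tiles with as many peaks then was 37.3% for CCND1, 12.4% for CCND2, 4.30% for Ccnd1, 27.8% for Ccnd2 and 6.90% for Cdk6. Over tiles with at least 1 peak the shares were 48.3%, 15.1% and 0.558% in RD and 4.27%, 45.9% and 11.6% in YAP-ERMS for cyclin D1, cyclin D2 and CDK6, which follows from the smaller number of tiles. On the gene's own chromosome the share was 16.0% for CCND2, 2.41% for Ccnd1 and 5.63% for Cdk6, and with tiles shifted by 200 kb it was 0.246% for CDK6. The causes of the other moves were not tested. In each list the order of the 3 genes by share was the same under the 4 alternatives run for shares: shifted tiles, the gene's own chromosome, tiles with a peak, and scores of 160 or more. No paired analysis was possible because each group has 1 library. Depth is unknown, so no limit on undetected peaks can be given.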

Other observations

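Peaks of the windows varied in width at a given score. Width was compared on the log2 scale with the median width of peaks of like score, after splitting each list by score into 50 bins, a measure chosen after the data were seen. The Ccnd1 peak at -171.8 kb in YAP-ERMS was 2988 bp wide, 1.12 log2 units above peaks of like score. The Ccnd2 peak at -179.4 kb, the highest scoring of its window, was 3013 bp wide and 0.97 units above. In RD the CDK6 peak at -83.1 kb, with a score of 81.9, was 0.72 units above. At the narrow end, the value was -0.66 for the Ccnd1 peak at -0.3 kb in YAP-ERMS. It was -0.54 in RD for both the CCND1 peak at -148.4 kb and the CCND2 peak at 150.7 kb. These are extremes picked from the 86 peaks, and the share of each list with such values was not computed. The medians of the windows lay close to 0 for Ccnd1 (0.00) and CCND2 (0.04), at 0.09 for CDK6 against 0.10 for all of chromosome 7 in RD, and at -0.27 for CCND1 against -0.08 for all of chromosome 11. In YAP-ERMS they were -0.15 for Ccnd2 against 0.04 for all of chromosome 6, and -0.13 for Cdk6 against -0.03 for all of chromosome 5.

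The peaks covered 10.2 kb of the CDK6 window in RD (2.54%), 3.57 kb of the CCND2 window (0.892%) and 1.58 kb of the CCND1 window (0.396%). In YAP-ERMS they covered 29.9 kb around Ccnd1 (7.49%), 21.1 kb around Cdk6 (5.27%) and 11.8 kb around Ccnd2 (2.94%), with wider peaks throughout that list.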
